A study of Capra hircus with 6 samples.

Results

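The 100 most abundant mRNAs of goat fetal skin are described here, out of 27947 mRNA transcripts with a value per library. They were chosen on their level, as the 100 transcripts with the highest mean over 6 libraries in FPKM (fragments counted relative to transcript length and library size). Transcripts of which white skin replicate 4 held at least 10 times the highest value of dark skin replicates 1 and 2 and white skin replicate 6 were left out, as were KRT14 and PERP if present. Only 1 transcript among the first 100 ranks was left out in this way, XM_005693788.1, at rank 94, which had 2.15, 13.4 and 2119 FPKM in dark skin and 1369, 1157 and 118 FPKM in white skin. KRT14 and PERP stood at ranks 189 and 194, so neither would have entered. Because the mean FPKM chose the members, their high level is a description and no finding.

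The libraries came from fetuses (Capra hircus) taken by caesarean section at day 100 of gestation, 3 of the Youzhou dark-skin goat, with dark skin (replicates 1, 2 and 3), and 3 of the Yudong white goat, with white skin (replicates 4, 5 and 6). According to the study's methods the dark-skinned breed is generally white in coat, both dorsal and ventral skin was collected from each fetus, and the libraries were strand-specific and made from RNA without ribosomal RNA. The labels do not give the body site or the sequencing batch of a library, and skin colour cannot be told apart from any other difference between the breeds. The values are FPKM without counts, so that the depth behind each value is unknown and no counting interval can be given.

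As background, every protein of a cell is made by ribosomes, which consist of a small subunit that reads the mRNA and a large subunit that joins the amino acids. Each subunit carries ribosomal RNA and many ribosomal proteins, which for the most part are needed in equal number. The mRNAs of these proteins are short and abundant in growing tissue. In the dermis, fibroblasts secrete fibrillar collagens together with small leucine-rich proteoglycans such as decorin and lumican, which coat the collagen fibrils.

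Genes of the ribosome made up most of the members that could be named. A gene symbol could be matched to 54 of the 100 members (54%), against 34.0% of all transcripts of the table, and the other 46 are known by accession only. Of the 54 named members, 44 encoded ribosomal proteins (81.5%), whereas ribosomal proteins made up 0.653% of all transcripts with a symbol. The small subunit was represented by 19 members, among them RPS3, RPS3A, RPS4X, RPS6, RPS12, RPS14, RPS15A, RPS19, RPS21, RPS24, RPS27, RPS27A, RPS28, RPS29 and FAU, in which FAU encodes RPS30 fused to a ubiquitin-like protein and RPS27A encodes ubiquitin fused to a small-subunit protein. The large subunit was represented by 25 members, RPL3, RPL4, RPL5, RPL6, RPL7, RPL10A, RPL11, RPL12, RPL18, RPL19, RPL22, RPL23, RPL23A, RPL24, RPL26, RPL27, RPL27A, RPL30, RPL31, RPL35, RPL35A, RPL36A, RPL37, RPL39 and RPLP0, in which RPLP0 is the base of the stalk that binds the elongation factors. A further 5 members carried only a locus symbol (LOC100861018, LOC102186381, LOC102178586, LOC102182181 and LOC102183280), for which no role is given here. The remaining 5 were UBB, a polyubiquitin gene, TPT1, the translationally controlled tumour protein, and the matrix genes DCN (decorin), LUM (lumican) and COL5A2 (a chain of collagen V, which helps to set the width of collagen fibrils).

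The skin label was compared with its defining markers. Of the 7 fibroblast markers, 5 were matched and 2, DCN and LUM, were members. COL1A2 and COL3A1, the genes of the main dermal collagens, were however listed at 0 in all 6 libraries, as were 946 transcripts of the table, although COL5A2, the neighbour of COL3A1 in the gene table with 0 entries between them, was a member (this pair was singled out after its values were seen). A value listed at 0 can be a failed estimate, and nothing is drawn from it. Of the 8 keratinocyte markers, 3 were matched and 0 were members. KRT14 ranged from 199.8 to 462 FPKM and PERP from 256 to 437 FPKM.

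The most abundant transcript was XM_005694265.1, which has no matched symbol. It had 11289.8, 12839.5 and 14998 FPKM in dark skin (replicates 1 to 3) and 24512, 14591 and 20138 FPKM in white skin (replicates 4 to 6), and it ranked first in every library. Its mean of 16395 ± 4976 FPKM (SD, n = 6) was 2.80 times that of the next member. That next member, RPS29, a small-subunit protein that binds zinc, had 5999, 5073 and 7375 FPKM in dark skin and 4893, 6772 and 5069.9 FPKM in white skin.

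**Figure D1:**
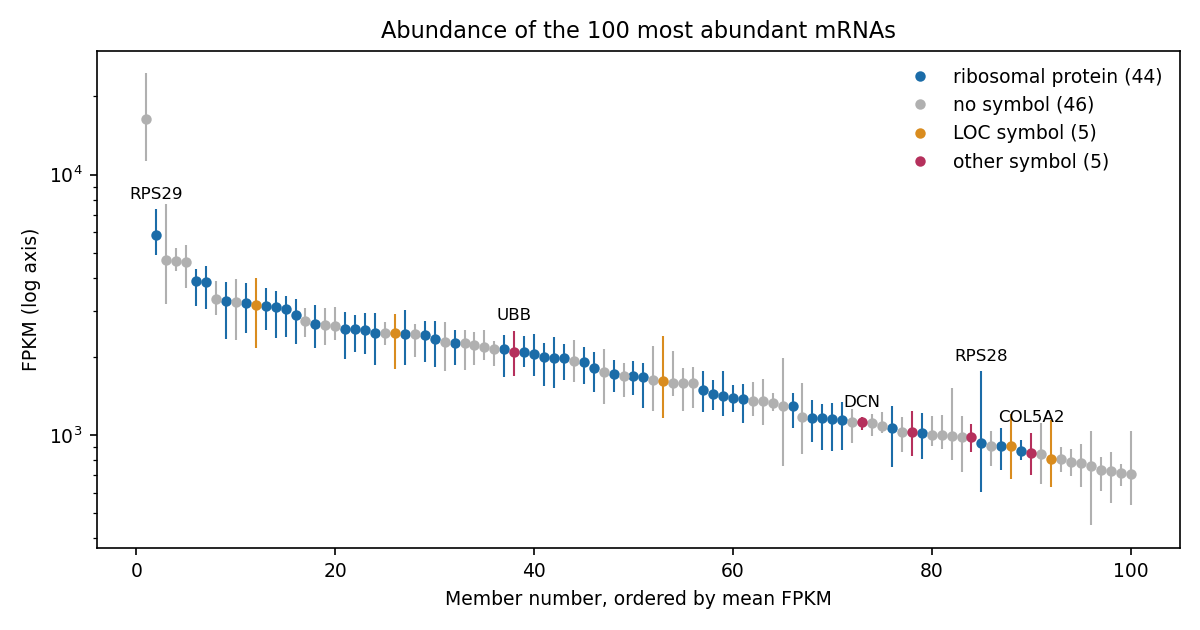
FPKM on a log axis is plotted against the members in order of mean FPKM, each point being the mean over 6 libraries, each line running from the lowest to the highest library, and the colours marking the class of gene. XM_005694265.1 lies alone at a mean of 16395 FPKM, RPS29 follows, and no line reaches below 449.5 FPKM.

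The members at ranks 3, 4 and 5 also lack a symbol and behaved differently from each other. XM_005702087.1 had 3193, 3562 and 7717 FPKM in dark skin and 4976, 4812 and 3885 FPKM in white skin, and dark skin replicate 3 stood far above the other libraries. XM_005683193.1 had 4728, 4690.3 and 4257 FPKM in dark skin and 4614, 4411 and 5242 FPKM in white skin and was among the steadiest members. XM_005680428.1 had 4967, 4097 and 5100.3 FPKM in dark skin and 3679.6, 5362 and 4472 FPKM in white skin. In the last of them white skin replicate 4 was the lowest library, a pattern shared by the ribosomal proteins described next.

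Ribosomal proteins followed in the order of abundance. RPL35, which lies near the exit of the peptide tunnel, had 4452, 3509.8 and 4429 FPKM in dark skin and 3053, 4309.9 and 3435 FPKM in white skin. RPL35A, a large-subunit protein mutated in some patients with Diamond-Blackfan anaemia, had 3859, 3100.2 and 3667 FPKM in dark skin and 2345, 3634 and 2929.5 FPKM in white skin. In both genes white skin replicate 4 was the lowest library and dark skin replicates 1 and 3 and white skin replicate 5 were the highest. RPS19, the gene most often mutated in that anaemia, had 3818, 3296 and 3208 FPKM in dark skin and 2462, 3382 and 3149.7 FPKM in white skin. RPS27, a zinc finger protein of the small subunit, had 3225, 3022 and 3663 FPKM in dark skin and 2529, 3239.7 and 3021 FPKM in white skin. RPS15A, of the small subunit, had 3506, 2839.6 and 3468 FPKM in dark skin and 2359, 3565 and 2816 FPKM in white skin. The lowest library was again white skin replicate 4 in each, and the breeds overlapped in each.

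A similar order of libraries was seen in further ribosomal proteins among the first 20 members. RPL27A, of the large subunit, had 3339.8, 2869.7 and 3285 FPKM in dark skin and 2381, 3416 and 2921 FPKM in white skin. RPL23, a large-subunit protein that can also bind MDM2, had 3234, 2643 and 3174 FPKM in dark skin and 2229.7, 3334 and 2700.1 FPKM in white skin. The breeds overlapped in both genes as well, since white skin replicate 5 lay at or above at least 1 dark library in each.

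The first 20 members also held 5 further transcripts without a symbol and 1 locus symbol. XM_005686730.1 had 3454, 2879 and 3401 FPKM in dark skin and 2949.6, 3918 and 3362 FPKM in white skin. XM_005692720.1 had 3982, 3209 and 3438 FPKM in dark skin and 2306, 3508 and 2930.0 FPKM in white skin. LOC100861018 had 4015, 3179.8 and 3822 FPKM in dark skin and 2163, 3225 and 2604 FPKM in white skin. White skin replicate 4 was the lowest library in the last 2 of these, but not in the first, in which dark skin replicate 2 was the lowest. XM_005696220.1 had 3076, 2620.1 and 2938 FPKM in dark skin and 2382, 2791 and 2648 FPKM in white skin. XM_005684415.1 had 2732, 2458 and 3079 FPKM in dark skin and 2223, 2932 and 2384 FPKM in white skin. XM_005700079.1 had 2739, 2312 and 3101 FPKM in dark skin and 2407, 2684 and 2419.5 FPKM in white skin. These 3 varied by coefficients of variation (CV, the SD as a percentage of the mean over 6 libraries) of 9.01% to 12.7%.

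The members named outside the ribosome lay lower in the order. UBB, which supplies ubiquitin for protein breakdown, had 2089, 1694 and 2356 FPKM in dark skin and 2136, 2513 and 1681 FPKM in white skin. TPT1, a conserved protein that rises with growth, had 1069.8, 918 and 1026 FPKM in dark skin and 859, 1097 and 913 FPKM in white skin. Both overlapped between the breeds. DCN had 1142, 1145 and 1078 FPKM in dark skin and 1044, 1169 and 1146 FPKM in white skin. LUM, which neighbours DCN in the gene table with 0 entries between them, had 1154, 975 and 946 FPKM in dark skin and 832, 1032 and 1234 FPKM in white skin. COL5A2 had 992, 905 and 709 FPKM in dark skin and 801, 698 and 1018 FPKM in white skin. DCN was nearly level over the libraries, whereas LUM and COL5A2 were both highest or second highest in dark skin replicate 1 and white skin replicate 6.

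A further 3 locus symbols were as follows. LOC102186381 had 2728, 2289 and 2919 FPKM in dark skin and 1796, 2766 and 2259 FPKM in white skin. LOC102182181 had 883, 806 and 1199.7 FPKM in dark skin and 779.9, 1076 and 675 FPKM in white skin. LOC102183280, which lies on the same chromosome as the former with 6 entries of the gene table between them, had 768, 709 and 1142 FPKM in dark skin and 701, 912 and 632 FPKM in white skin. These 3 transcripts were all highest in dark skin replicate 3 and lowest in white skin, in replicate 4 or 6. The same held for 28 of the 100 members in all. The share over all transcripts is not given here, so this pattern cannot be called particular to the members.

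The edge of the group was not sharp. The last members inside it were XM_005689583.1, with 744, 751 and 688 FPKM in dark skin and 634, 772 and 691 FPKM in white skin, and XM_005693816.1, with 606, 632 and 1038 FPKM in dark skin and 759, 686 and 538 FPKM in white skin. The first transcript outside was RPL36AL, encoding a large-subunit protein, with 777, 669 and 805 FPKM in dark skin and 534, 794 and 666 FPKM in white skin. It was followed by XM_005701692.1, with 767, 653 and 982 FPKM in dark skin and 562, 739 and 516 FPKM in white skin. The last member had a mean of 709.9 FPKM and RPL36AL one of 708 FPKM, so the cut falls within the spread over libraries. Across the group, 80 members had a mean of at least 1000 FPKM, which was every transcript of the table at that level, and the lowest value of any member in any library was 449.5 FPKM. The median mean over the table was 2.39 FPKM.

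As a group, the 100 members held 39.9%, 37.5% and 38.5% of the summed FPKM in dark skin, against 34.8%, 39.0% and 37.8% in white skin. The mean was 37.9% ± 1.74 (SD, n = 6), with 38.6% ± 1.19 in dark and 37.2% ± 2.16 in white skin (SD, n = 3). The lowest library was white skin replicate 4, and without it the white mean was 38.4%, next to the dark mean. FPKM is scaled by transcript length, so this is a share of summed FPKM and not of reads. Members 1 to 50 alone held 25.6% to 28.7%. A share of 50% of the summed FPKM was reached by 235, 296 and 239 transcripts in dark skin, and by 348, 246 and 285 in white skin.

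**Figure D2:**
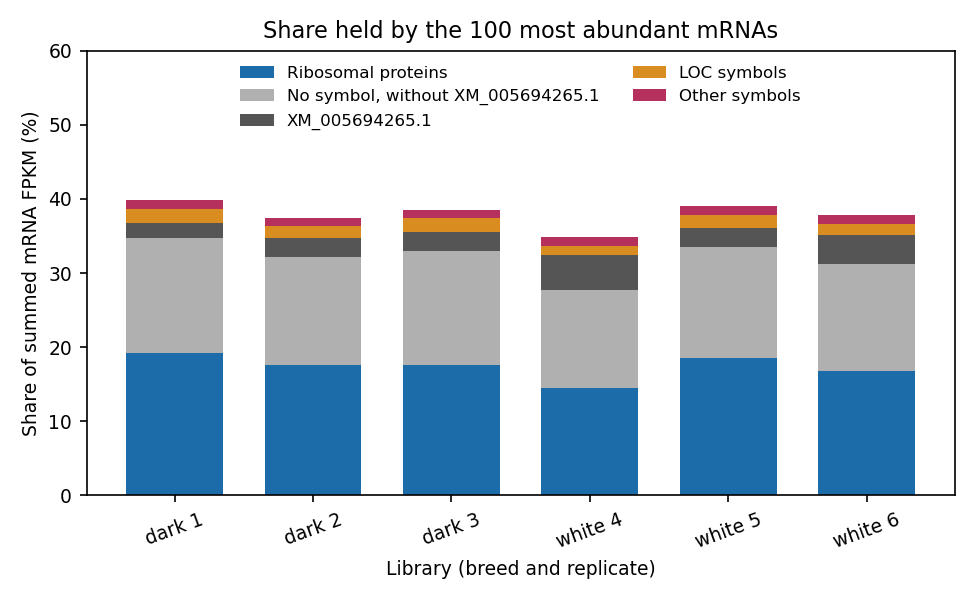
Each bar is 1 library, dark skin replicates 1 to 3 and white skin replicates 4 to 6, and its height is the share of the summed mRNA FPKM in percent held by the members, split by class of gene. White skin replicate 4 has the lowest bar (34.8%), the lowest ribosomal protein part (14.4%) and the highest part of XM_005694265.1 (4.74%).

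Within this share the classes moved in unequal ways. The 44 ribosomal proteins held 19.2%, 17.6% and 17.6% of the summed FPKM in dark skin, against 14.4%, 18.5% and 16.8% in white skin. Their mean was 18.1% ± 0.931 in dark and 16.6% ± 2.04 in white skin (SD, n = 3), or 17.7% in white skin without replicate 4. The small and large subunits held nearly equal parts, 8.60% and 8.76% on average. By contrast, the members without a symbol held 17.1% to 18.4%, and here white skin replicate 4 was not the lowest library. XM_005694265.1 alone took 4.74% there, against 2.11% to 3.93% in the other libraries. Without XM_005694265.1, the members without a symbol held 13.2% in white skin replicate 4 and 14.4% to 15.4% in the other libraries. The LOC symbols held 1.31% to 1.96%, and UBB, TPT1, DCN, LUM and COL5A2 together 1.04% to 1.20%.

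The ribosomal protein mRNAs were not at equal levels. On the FPKM scale, which is per length, their means ran from 867 ± 67.6 FPKM (SD, n = 6) for RPL18, a large-subunit protein, to 5864 ± 1032 FPKM (SD, n = 6) for RPS29, a 6.76-fold range, with a median of 1989 FPKM. The median was 2427 FPKM for the small and 1677 FPKM for the large subunit. Ribosomal protein genes have many near-identical copies and pseudogenes among which reads can be split, and transcript lengths were not given, so the level of each single gene is uncertain.

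Of the 53 ribosomal protein genes matched in the table, 44 had a member transcript and 9 did not. Among those 9, RPL36AL (rank 102) lay close to the edge. RPL9 had a mean of 362 FPKM and RPL21 one of 51.6 FPKM. A further 5 were paralogues of ribosomal proteins, whose means were 68.3 FPKM for RPS27L, 55.0 FPKM for RPL7L1, 50.6 FPKM for RPL22L1 and 39.6 FPKM for RPL26L1, and at most 0.0760 FPKM for the transcripts of RPL10L. The 8 other transcripts of member genes reached at most 107 FPKM, for RPL35A, far below the member transcript of the same gene.

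Fewer members could be placed in the other gene lists, whose highest non-members are given beside them. The list of translation factors, which also counts TPT1 and NACA, gave 1 member of 8 matched genes (TPT1). NACA, which guides nascent chains, lay outside at rank 107, and the elongation factor EEF2 at rank 116. The list of collagens and extracellular matrix gave 3 of 16, with the matrix protein gene DPT (dermatopontin) at rank 105, and counts COL1A2 and COL3A1, listed at 0, as non-members. Protein turnover and iron storage gave 1 of 8 (UBB). No member came from keratins and epidermis (0 of 18 matched genes), cytoskeleton (0 of 11), glycolysis (0 of 6, GAPDH at rank 113), mitochondrial respiration (0 of 39, ATP5E at rank 106), chaperones (0 of 17, PPIB at rank 104) or nuclear RNA proteins (0 of 6, HNRNPA1 at rank 176). The lists for fetal growth (0 of 2), skeletal muscle (0 of 6), melanocytes (0 of 7) and endothelial and blood cells (0 of 11) also gave 0 members. In the list of haemoglobin and erythroid genes (0 of 4) only ALAS2, HEMGN, EPB42 and AHSP were matched, so it says nothing about the globins. These counts cover only the genes whose symbol could be matched, and the 46 members without a symbol may belong to any of the lists.

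Membership varied little over the libraries. The mean over these same libraries chose the members, so their high rank in each library is a description. Of the 100 members, 96, 97 and 95 stood among the 100 highest transcripts of the dark libraries and 93, 95 and 95 among those of the white libraries. In every library 87 members did so, and the lowest rank of any member in any library was 137. When the choice was repeated on 1 breed at a time, the 100 chosen on dark skin and the 100 chosen on white skin shared 94 transcripts.

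The median CV of the members over the 6 libraries was 13.6% (quartiles 10.8% and 16.3%). It was 12.7% for the 900 transcripts that follow in rank under the same exclusions and 21.6% for all 23090 transcripts with a mean of at least 0.1 FPKM. Without white skin replicate 4 the order of the first pair turned, with medians of 10.4% for the members, 11.97% for the next 900 and 20.1% for all. A CV under 20% was found for 86 of 100 members, for 78.8% of those next 900 and for 47.0% of all. A CV under 10% was found for 18 members, against 29.6% of the next 900 and 16.7% of all. The highest library was at least 2 times the lowest for 6 members, against 12.2% of the next 900 and 33.7% of all. The members thus held a smaller share of very steady and of strongly variable transcripts than the next 900, without a test of these shares, which the exclusions also touch. With the mean of each breed removed the median CV was 13.4%, and after median-ratio scaling of the libraries it was 12.9%.

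**Figure D3:**
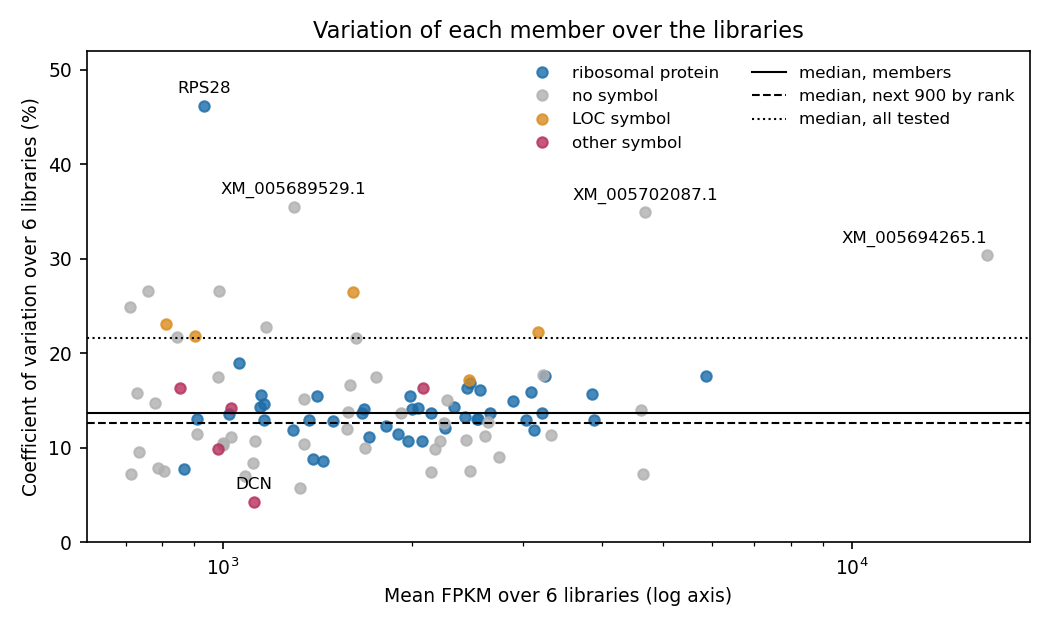
The CV over 6 libraries in percent is plotted against the mean FPKM on a log axis, with 1 point per member coloured by class and horizontal lines for the medians of the members, of the next 900 transcripts by rank and of all transcripts tested. Most members lie under 20%, with DCN lowest and RPS28 highest at 46.2%.

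The steadiest member was DCN, with a CV of 4.31%, whose values are given above. XM_005694067.1 had 1270.0, 1379 and 1444 FPKM in dark skin and 1312, 1230.5 and 1311 FPKM in white skin, a CV of 5.78%. XM_005688772.1 had 1093, 1034 and 1223 FPKM in dark skin and 1018, 1089.5 and 1033 FPKM in white skin, a CV of 7.02%. XM_005689583.1 and XM_005683193.1, given above, had CVs of 7.20% and 7.25%. The lowest library was white skin replicate 4 in 3 of these 5 members, by small margins, and the breeds overlapped in all 5.

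The least steady member was RPS28, a small-subunit protein, with a CV of 46.2%. It had 784, 1761 and 992 FPKM in dark skin and 832, 621 and 604 FPKM in white skin, and dark skin replicate 2 stood alone above the rest. XM_005689529.1 had 1972, 1382 and 1449 FPKM in dark skin and 762, 1428 and 778 FPKM in white skin, a CV of 35.5%, with the white replicates 4 and 6 low and white skin replicate 5 within the dark range. XM_005702087.1 (CV 34.9%) and XM_005709397.1 (CV 26.6%) were both highest in dark skin replicate 3. The values of XM_005709397.1 were 803, 853 and 1514 FPKM in dark skin and 931, 932 and 889 FPKM in white skin. XM_005694265.1, with a CV of 30.4%, was highest in white skin replicates 4 and 6.

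The ribosomal proteins varied together. Relative to each gene's own mean, the median ribosomal protein stood at 0.17, -0.07 and 0.15 on the log2 scale in dark skin, against -0.30, 0.18 and -0.10 in white skin. After median-ratio scaling these values were 0.17, -0.07, 0.11, -0.28, 0.18 and -0.08 in the same order, with scaling factors of 0.986 to 1.03. White skin replicate 4 was the lowest library for 42 of the 44 genes and white skin replicate 6 for the other 2. The highest library was white skin replicate 5 for 16, dark skin replicate 1 for 14, dark skin replicate 3 for 11 and dark skin replicate 2 for 3 genes. Of the 56 other members, 33 were also lowest in white skin replicate 4. The share of all transcripts that were lowest in this library is not given here, so a low value there cannot be called particular to the members. In bulk tissue, fewer cells of a type and less RNA per cell cannot be told apart.

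**Figure D4:**
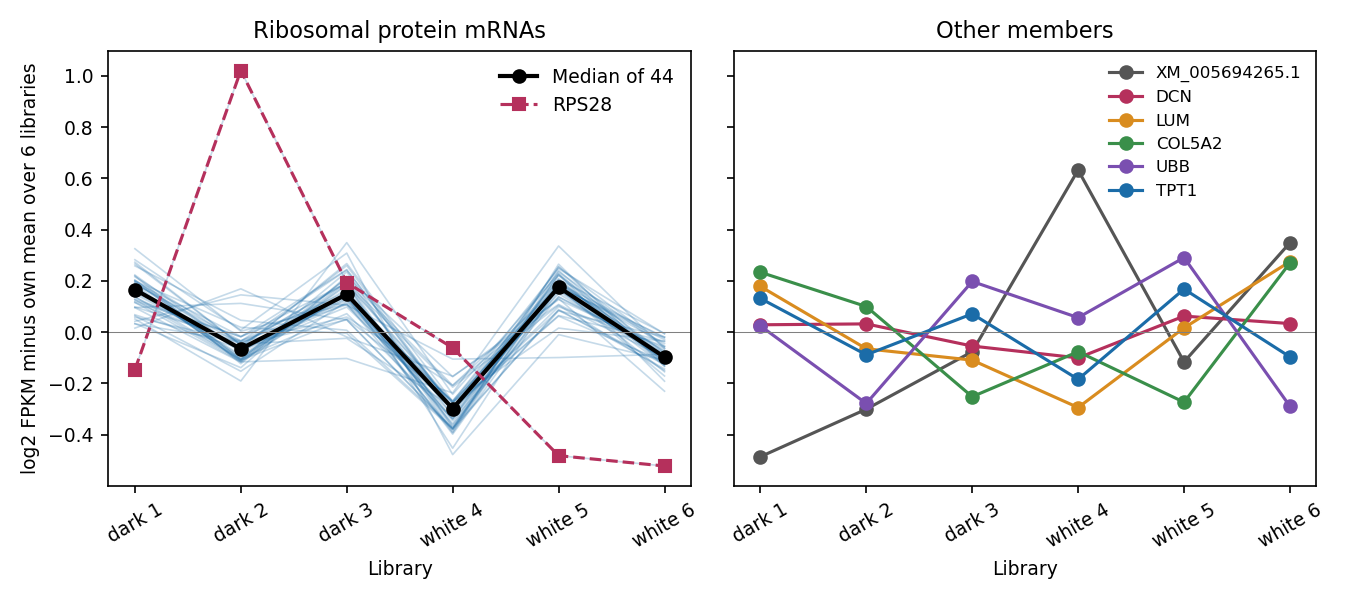
The vertical axis gives log2 FPKM minus the same gene's mean over 6 libraries, and the horizontal axis the libraries, with the 44 ribosomal proteins and their median on the left and 6 other members on the right. Most ribosomal protein lines dip together in white skin replicate 4, where XM_005694265.1 is at its highest, and RPS28 peaks alone in dark skin replicate 2.

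The correlation of each ribosomal protein with the mean profile of the others, over the 6 libraries on the log2 scale, had a median of 0.947 and was at least 0.9 for 32 of 44. As a description only, since the points are 6 libraries that share depth and normalization, the 56 other members had a median correlation of 0.768 with this profile. It was at least 0.9 for 19 of them, 16 of which have no symbol, and 0.941 for TPT1. The lowest values among the ribosomal proteins were RPS28 at -0.117 and RPL18 at 0.409. RPL18 had 891, 957 and 931 FPKM in dark skin and 804, 807 and 815 FPKM in white skin. In the opposite direction, XM_005694265.1 stood at -0.836 and COL5A2 at -0.224, and 6 of the 56 other members were below 0.

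White skin replicate 4 also stood apart in markers of some other cell types. The summed FPKM of the skeletal muscle list (6 matched genes) was 22.1, 24.2 and 80.8 in dark skin, against 748, 253 and 15.5 in white skin. CKM, the creatine kinase of muscle, had 2.71, 3.02 and 20.3 FPKM in dark skin and 226, 65.8 and 2.56 FPKM in white skin for its main transcript. White skin replicate 5, with the second highest muscle sum, was the highest library for 16 ribosomal proteins and not low. The 5 endothelial markers were all highest in white skin replicate 4, and their summed FPKM was 71.0, 63.7 and 78.4 in dark skin, against 121, 87.4 and 89.6 in white skin. The 2 matched leukocyte markers were also highest there, with sums of 7.72 FPKM against 4.07 to 6.01 FPKM in the other libraries. The 3 matched melanocyte markers were lowest there in sum, at 10.6 FPKM against 14.4 to 40.4 FPKM. Of the 5 matched fibroblast markers POSTN was highest there, DCN and LUM were lowest there, and COL1A2 and COL3A1 were listed at 0. Their sum was 3547 FPKM there, within the 2823 to 3744 FPKM of the other libraries. The epidermis list summed to 1561, 1753 and 2524 FPKM in dark skin and 1838, 2099 and 1746 FPKM in white skin. The 3 matched keratinocyte markers summed to 652 FPKM in white skin replicate 4, within the 516 to 934 FPKM of the other libraries. The 4 erythroid markers summed to 7.31 FPKM in that library, within the 1.98 to 15.5 FPKM of the others. The part of any of these cell types in the ribosomal protein profile was not tested.

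To find out whether these mRNAs differed between dark and white skin, all 23090 transcripts with a mean of at least 0.1 FPKM were tested with limma on log2(FPKM + 0.1), and all 100 members passed this filter. On this scale, 0 of 100 members were called at an adjusted p under 0.05 (limma, Benjamini-Hochberg), against 0.00866% of all transcripts tested. The smallest adjusted p of any member was 0.601. At an unadjusted p under 0.05 there was 1 member, XM_005689529.1, and 1913 of all transcripts. Without the trend in the variance, limma called 0 members as well. The median standard error of a member's difference was 0.21, so small differences of the members may have been missed. In simulated libraries 111 of 200 planted log2 differences of 2 were called. These were planted in transcripts drawn at random from all 23090, so the count does not tell how often a member would be called.

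Most differences of the members had the same sign, though not under every normalization. The log2 difference, dark minus white, was positive for 88 members and negative for 12, with a median of 0.15, beside -0.01 and 49.3% positive over all transcripts tested. Among the 44 ribosomal proteins it was positive for 43 and negative for RPL24 (-0.02), with a median of 0.17. Without white skin replicate 4, 74 members and 34 ribosomal proteins were positive, and the medians were 0.04 over members and 0.05 over ribosomal proteins. Without white skin replicate 5 these medians were 0.25 and 0.28. Under quantile normalization, 49 members and 24 ribosomal proteins were positive, and the medians were -0.00100 over members and 0.01 over ribosomal proteins. Members that share a library profile are not independent of each other, so these counts carry no test.

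**Figure D5:**
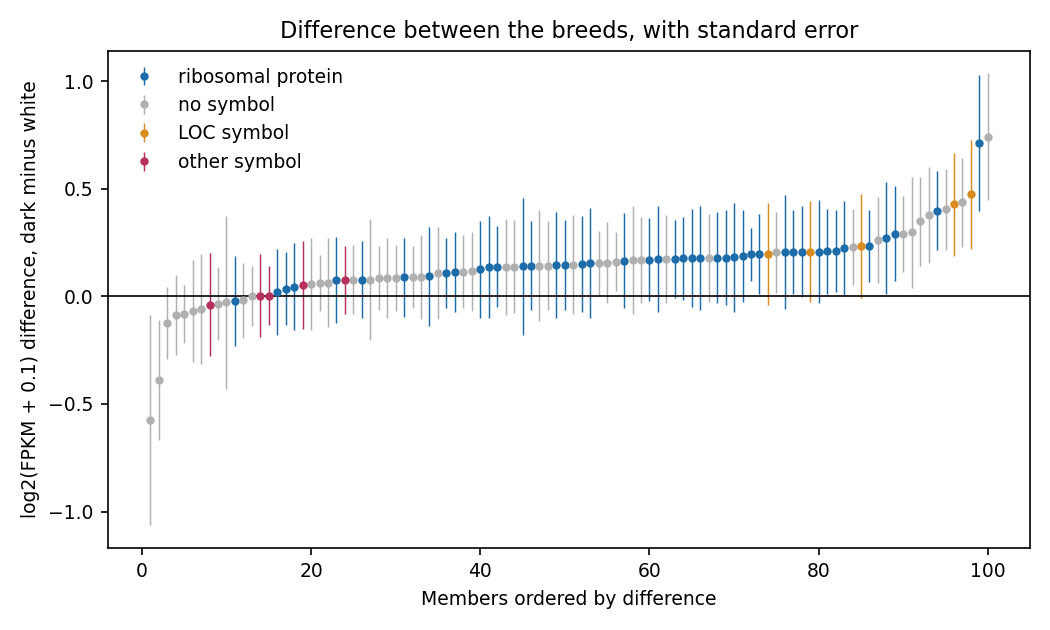
Each point is the difference of 1 member between the breeds, dark minus white, on the log2(FPKM + 0.1) scale, ordered by size, with a line of 1 standard error to each side (limma, 3 libraries per breed) and colours for the class of gene. Of the 100 points 88 lie above 0, and none passed the threshold.

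The breeds did not overlap in 4 members that were higher in dark skin, against 7.65% of all transcripts tested, and in 0 members that were lower, against 7.06%. RPL10A, a large-subunit protein, had 1269.7, 1049.9 and 1293 FPKM in dark skin and 749.6, 1037 and 968 FPKM in white skin, a log2 difference of 0.40 ± 0.18 (SE) with an adjusted p of 0.619 (limma). RPL18, whose values are given above, differed by 0.19 ± 0.12 (SE) on the log2 scale, with an adjusted p of 0.686 (limma). XM_005695566.1 had 2727, 2580.4 and 2499.9 FPKM in dark skin and 2210.5, 2484 and 2312 FPKM in white skin. XM_005696738.1 had 2130.0, 1887 and 1953 FPKM in dark skin and 1315, 1755 and 1470.0 FPKM in white skin. None of the 4 passed the threshold, and their share of the members was below the share among all transcripts.

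The largest positive differences belonged to XM_005689529.1, at 0.74 ± 0.30 (SE) on the log2 scale, and RPS28, at 0.71 ± 0.32 (SE), with adjusted p of 0.601 and 0.614 (limma). For RPS28 the difference was 0.38 without dark skin replicate 2. LOC100861018 differed by 0.48 ± 0.25 (SE), with an adjusted p of 0.642 (limma). XM_005696744.1 had 1308, 1137 and 1587 FPKM in dark skin and 940.2, 1201 and 844 FPKM in white skin, a log2 difference of 0.44 ± 0.21 (SE) with an adjusted p of 0.620 (limma). LOC102178586 had 1677, 1488 and 2393 FPKM in dark skin and 1341, 1580.3 and 1159.9 FPKM in white skin, a log2 difference of 0.43 ± 0.24 (SE) with an adjusted p of 0.659 (limma). Without dark skin replicate 3, its highest library, the difference was 0.23. Under quantile normalization the differences of XM_005696744.1 and LOC102178586 were 0.25 and 0.24. In each of these 5 members at least 1 white library lay within the range of the dark libraries.

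The largest negative difference was that of XM_005694265.1, at -0.58 ± 0.49 (SE) on the log2 scale with an adjusted p of 0.764 (limma). White skin replicate 5 lay below dark skin replicate 3 in this transcript, so the breeds overlapped. Under quantile normalization its difference was 0, since it ranked first in every library, and XM_005692311.1 then had the largest negative difference of the 5 transcripts named here, at -0.45. XM_005692311.1 had 449.5, 651 and 909.6 FPKM in dark skin and 787, 1030.3 and 737 FPKM in white skin, a log2 difference of -0.39 ± 0.28 (SE) with an adjusted p of 0.726 (limma). Without dark skin replicate 1 this difference was -0.13, without white skin replicate 5 it was -0.24, and without dark skin replicate 3 it was -0.64. XM_005695309.1, XM_005688125.1 and XM_005680395.1 differed by -0.12 ± 0.17 (SE), -0.09 ± 0.19 (SE) and -0.08 ± 0.14 (SE) on the log2 scale, with adjusted p of 0.849, 0.917 and 0.888 (limma). The values of XM_005695309.1 were 1050.5, 862 and 1045 FPKM in dark skin and 935, 1174 and 1115 FPKM in white skin. Those of XM_005688125.1 were 732, 630.4 and 914 FPKM in dark skin and 922, 719.8 and 763 FPKM in white skin, and those of XM_005680395.1 were 825, 722 and 798 FPKM in dark skin and 762, 823 and 899 FPKM in white skin. These last 3 differences were smaller than their standard errors, and with a library left out they ranged from -0.22 to -0.03, from -0.23 to 0.037 and from -0.14 to -0.02. The first came nearest to 0 without dark skin replicate 2 and the last without white skin replicate 6, and the second changed sign without dark skin replicate 2 (0.037) and without white skin replicate 4 (0.017). Under quantile normalization the differences of the 3 transcripts were -0.28, -0.25 and -0.12.

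Of the whole list of ribosomal proteins, 60 transcripts of 62 matched were tested, and 0 were called higher and 0 lower in dark skin. A positive difference was found for 55, with a median of 0.17 on the log2 scale, and 2 had an unadjusted p under 0.05 (limma). Over all 23090 transcripts tested, 2 were called, 49.3% had a positive difference and 1913 had an unadjusted p under 0.05 (limma). The 19 tested transcripts of the matrix list gave 0 calls in either direction and 6 positive differences, with a median of -0.10. Of these transcripts, 7 had an unadjusted p under 0.05 (limma). This list matched 21 transcripts of 16 genes, 6 of them from POSTN, so its transcripts are not independent of each other. The 8 tested transcripts of the translation factor list gave 0 calls, 0 transcripts at an unadjusted p under 0.05 (limma) and 7 positive differences. Among the members, DCN differed by 0.00 ± 0.14 (SE), LUM by 0.00 ± 0.19 (SE), COL5A2 by 0.05 ± 0.20 (SE), TPT1 by 0.08 ± 0.16 (SE) and UBB by -0.04 ± 0.24 (SE) on the log2 scale. Each of these 5 differences was smaller than its standard error.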

How the data were processed

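RNA-seq libraries of fetal goat skin, 3 per breed (3 ewes per breed per the study's methods), were analysed as deposited. Per the labels and the methods, the reads were aligned by the authors with TopHat 2.0.9 and Bowtie 2.0.6 to a goat genome whose assembly name is not given in the sources used here. The authors calculated FPKM per transcript with Cuffdiff 2.1.1 (the processing notes also list 2.2.2), so values are scaled to transcript length and library size. No counts were used, and a deposited column of the authors' mean was not used.

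Members were the 100 highest means after the exclusions, which were refilled from the next ranks. Differences were tested with limma 3.58.1 (R 4.3.3), using eBayes with its trend option, on log2(FPKM + 0.1). The 23090 transcripts averaging 0.1 FPKM or more were tested, 2-sided, with Benjamini-Hochberg adjustment over all of them. The difference understates changes of low transcripts. CVs and shares were computed in Python 3.11.15 with numpy 2.4.6 and pandas 2.3.3. Symbols came from RefSeq accessions without version, through the ARS1.2 gene table (9497 of 27947 matched). Gene positions were used only for the chromosome and the order of entries of neighbouring genes, and sequences were not used here.

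Members and gene lists were chosen with earlier results of these data known. Named with values were the 20 highest members, the 5 lowest and 5 highest CVs, the 5 largest differences each way, the 2 highest members of each list and the edge of the ranks. The other members were named by class or after their values were seen. Some genes that this rule names are not reported here. In simulated data for this comparison, with 23090 transcripts, 111 of 200 changes of log2 size 2 were called along with 4 unchanged transcripts, and 0 calls were made with no change planted. Alternatives were pseudocounts of 0.01 and 1, no filter or a mean of at least 1 FPKM, median centring, quantile normalization, no trend, no refill and each library left out.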

Additional observations from a re-analysis of the deposited data

How the results depend on the processing

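The number of members called between the breeds was 0 under every alternative run, and the share of the summed FPKM held by the members was 37.5% to 38.5% with a library left out. Over all transcripts, limma called 2 in the full comparison, 1 with a mean of at least 1 FPKM, 26 with no filter, 28 with no trend, and 1 to 7 with a library left out. Under quantile normalization, 49 members in place of 88 and 24 ribosomal proteins in place of 43 had a positive difference, and the median difference over members was -0.00100 in place of 0.15, that over ribosomal proteins 0.01 in place of 0.17, and the difference of XM_005694265.1 was 0 in place of -0.58. With a library left out, the positive members numbered 74 to 94 and the median was 0.04 to 0.25. The difference of XM_005688125.1 changed sign without dark skin replicate 2 (0.037) and without white skin replicate 4 (0.017), ranging from -0.23 to 0.037 with a library left out. The median CV was 10.4% without white skin replicate 4 and at most 14.4% without another library, and only without white skin replicate 4 was it set beside that of the next 900 (11.97%), which was then higher. The causes were not tested. No paired analysis was possible because the replicate numbers of the breeds differ (1 to 3 and 4 to 6). FPKM holds no counts, so counting error is unknown.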

Other observations

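When the 100 highest transcripts were chosen on 1 breed alone, 6 transcripts were chosen on dark skin only and 6 on white skin only. POSTN (periostin, a matrix protein of fibroblasts) was among the latter, at rank 154 by the dark and rank 94 by the white mean. It had 513, 365 and 389.8 FPKM in dark skin and 907, 739 and 721 FPKM in white skin, so the breeds did not overlap, and its log2 difference of -0.91 ± 0.18 (SE) had an adjusted p of 0.405 (limma). LOC102176710 moved from rank 285 to rank 96. It had 158, 295 and 163 FPKM in dark skin and 512, 557 and 1266 FPKM in white skin, again without overlap, with a log2 difference of -1.85 ± 0.40 (SE) and an adjusted p of 0.423 (limma). The rank of each breed's mean chose both transcripts, so their differences are a description.

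In the other direction DPT (dermatopontin, a matrix protein of the dermis) stood at rank 98 by the dark and rank 119 by the white mean. It had 923, 789 and 586 FPKM in dark skin and 388, 639.7 and 721 FPKM in white skin, with overlap between the breeds. ATP5E, a subunit of the mitochondrial ATP synthase, was chosen on white skin only. It had 547, 511 and 761 FPKM in dark skin and 702, 872 and 637 FPKM in white skin, with overlap between the breeds and an adjusted p of 0.715 (limma).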
